A study of Mus musculus with 29 samples.

Results

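The genes described here are 10 genes of MHC class I antigen presentation in the mouse ovary: the heavy chains H2-K1, H2-D1, H2-Q4, H2-Q6, H2-Q7, H2-Q10 and H2-T23, the light chain B2m, and the peptide-loading genes Tap1 and Tapbp. They are 10 of the 51912 gene IDs in the deposited table, all found by symbol. They were chosen by a measured value, the level of H2-Q10, which was higher in Cdkn1b-null than in wild-type ovaries at embryonic day 18.5 (E18.5). The E18.5 genotype difference is therefore given below as a description with no p-value, and a count of calls at E18.5 includes H2-Q10 by that choice and supports nothing. Bulk RNA-seq was done on 29 ovary libraries of 8 groups. Wild-type (Cdkn1b +/+, labelled WT) ovaries had 4 libraries at each of E13.5, E18.5, postnatal day 8 (PND8) and 12 weeks. Ovaries homozygous for the null allele (Cdkn1b -/-, lacking p27Kip1, an inhibitor of cyclin-dependent kinases) had 4 libraries at E18.5 and 3, numbered 1, 3 and 4, at each of the other ages. All ovaries were dissociated with papain before RNA extraction. The labels used here give no strain and do not say whether the null is limited to a cell type or which animals a library came from.

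MHC class I molecules show peptides from inside a cell to CD8 T cells and natural killer cells. A polymorphic heavy chain pairs with the invariant light chain β2-microglobulin (B2m), and the pair is loaded in the endoplasmic reticulum with peptides that the proteasome makes and the TAP transporter, of which Tap1 is a subunit, carries in. Tapasin (Tapbp) bridges the empty heavy chain to TAP. H2-K1 and H2-D1 encode the classical heavy chains, which present most peptides. H2-T23 encodes Qa-1, which presents peptides taken from other class I signal sequences to an inhibitory receptor of natural killer cells. H2-Q6 and H2-Q7 encode Qa-2, held at the membrane by a lipid anchor, H2-Q4 encodes Qb-1, and H2-Q10 encodes a secreted heavy chain known chiefly from the liver. Transcription of class I genes is raised by interferons, by NF-κB and by the transactivator NLRC5.

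The family lies mostly in 1 stretch of the genome, and its members share sequence. On GRCm38 (GENCODE M21), 9 of the 10 genes lie on chromosome 17 within 2.12 Mb, and B2m lies at chr2:122147686-122153083 (+). In order along the chromosome, Tapbp is at chr17:33915899-33929292 (+), H2-K1 at chr17:33996017-34000347 (-) and Tap1 at chr17:34187553-34197225 (+). H2-D1 is at chr17:35262730-35267499 (+), and H2-T23 at chr17:36029773-36032855 (-). The 4 Q genes follow one another within 94.9 kb: H2-Q4 at chr17:35379617-35385290, H2-Q6 at chr17:35424850-35430055, H2-Q7 at chr17:35439155-35443773 and H2-Q10 (ENSMUSG00000067235) at chr17:35470089-35474563, all on the plus strand.

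Reads can be shared among them. In the annotated transcripts, 34.9% of the 50-base stretches of H2-Q7 also occurred in another gene, as did 32.0% of H2-Q6, 28.8% of H2-T23, 24.3% of H2-Q4, 13.9% of H2-D1, 7.7% of H2-Q10 and 6.9% of H2-K1. B2m shared none, Tap1 0.8% and Tapbp 3.5%. H2-Q6 and H2-Q7 had 284 such stretches in common, which was 13.9% of H2-Q6 and 17.0% of H2-Q7. H2-Q10 shared most with H2-Q1 (5.6%), the pseudogene H2-T-ps (4.7%) and H2-D1 (3.3%), so most of its length is its own. At 100 bases the shares fell to 17.2% for H2-Q7, 10.8% for H2-Q6 and 1.9% for H2-Q10. RSEM, the authors' quantifier, divides such reads among genes, and 100% of the values of H2-D1, H2-Q6, H2-Q7, H2-T23 and Tapbp were not whole numbers, against 93.1% for H2-Q10 and 0% for B2m. The values of H2-Q6, H2-Q7, H2-Q4 and H2-T23 are therefore uncertain in how they divide between copies. Several members also overlap another gene: Tap1 and Psmb9, Tapbp and Zbtb22, B2m and Patl2, H2-T23 and A930015D03Rik, H2-Q4 and Gm11131. Reads in these overlaps cannot be told apart, since no source used here states whether strand was kept.

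**Figure D1:**
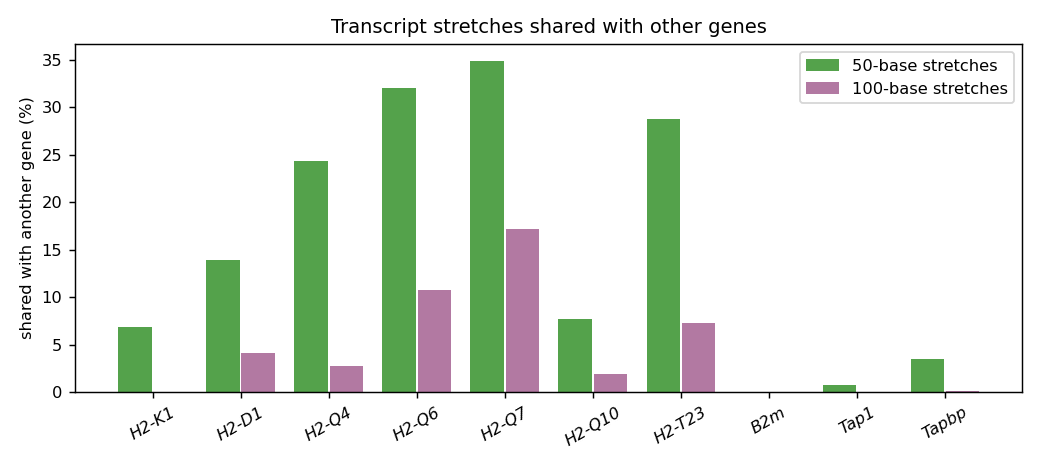
Shared sequence of the 10 genes: bars give, for each gene on the x axis, the percent of its 50-base (green) and 100-base (purple) transcript stretches that also occur in another annotated gene. H2-Q7, H2-Q6, H2-T23 and H2-Q4 have the longest 50-base bars, from 34.9% down to 24.3%, and B2m is at 0.

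The promoters of 6 heavy-chain genes carry a common block of motifs, printed here because H2-Q10, the gene that chose the family, differs from the other 5 in this block. These 6 were taken because each carries the interferon-response motif given below, so its presence in all 6 was fixed by that choice. H2-T23, the other heavy chain, lacks it and is not printed. Sequences are RefSeq promoters on GRCm38.p6, of which 27025 (250 bases before to 50 after each start) were searched on both strands, and all 10 genes had one. Capitals mark the matches to the κB motif GGGGATTCCCC and the interferon-response motif AGTTTCACTTCT, both spelled as in H2-K1, to TGACG, and to ATTGG with its other strand CCAAT. Each runs 5′ to 3′ on the gene's own strand, from chr17:34000348-34000479 (-) for H2-K1, chr17:35262902-35263056 for H2-D1, chr17:35379422-35379576 for H2-Q4, chr17:35424656-35424810 for H2-Q6, chr17:35439000-35439154 for H2-Q7 and chr17:35469892-35470046 for H2-Q10, the last 5 on the plus strand.
H2-K1: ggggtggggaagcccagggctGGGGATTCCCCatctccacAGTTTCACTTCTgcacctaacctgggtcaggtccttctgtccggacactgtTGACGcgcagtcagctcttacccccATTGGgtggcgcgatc
H2-D1: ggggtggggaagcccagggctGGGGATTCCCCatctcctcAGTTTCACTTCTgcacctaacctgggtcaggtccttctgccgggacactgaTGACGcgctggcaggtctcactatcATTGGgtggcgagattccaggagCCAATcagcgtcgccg
H2-Q4: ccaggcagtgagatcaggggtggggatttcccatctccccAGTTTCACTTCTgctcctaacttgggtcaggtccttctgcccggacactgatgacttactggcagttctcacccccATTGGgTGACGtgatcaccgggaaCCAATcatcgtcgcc
H2-Q6: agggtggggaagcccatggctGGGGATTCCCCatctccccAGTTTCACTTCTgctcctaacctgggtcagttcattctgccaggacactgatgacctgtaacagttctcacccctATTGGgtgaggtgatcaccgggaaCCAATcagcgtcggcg
H2-Q7: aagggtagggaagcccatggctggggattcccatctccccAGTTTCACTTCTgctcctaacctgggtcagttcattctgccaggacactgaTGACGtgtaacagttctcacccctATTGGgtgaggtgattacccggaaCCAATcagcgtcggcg
H2-Q10: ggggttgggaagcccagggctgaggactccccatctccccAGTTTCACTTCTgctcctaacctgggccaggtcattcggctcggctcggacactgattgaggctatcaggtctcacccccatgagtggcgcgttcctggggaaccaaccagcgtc
AGTTTCACTTCT was found in all 6 of these promoters and in 10 (0.037%) of all promoters. GGGGATTCCCC was found in H2-K1, H2-D1 and H2-Q6 and in 6 (0.0222%) of all promoters. At the same place H2-Q4 has GGGGATTTCCC (C8T) and H2-Q10 has GAGGACTCCCC (G2A and T6C), counting from 1 at the 5′ end of the motif. TGACG was in 6 members against 21.0% of all promoters. ATTGG or CCAAT was in 9 members, with H2-Q10 the exception, against 37.9% of all promoters. Counted back from the interferon-response motif, the place of the κB motif in H2-Q7 reads TGGGGATTCCC, which differs from it at 4 bases. These letters hold GGGGATTCCC, the κB motif without its last C, so the 4 differences come from a shift by 1 base. All of these are letter matches in a fixed window and say nothing on binding.

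Library totals ran from 14.1 to 48.2 M counts, and levels below are CPM (counts scaled to a fixed library total) on TMM-scaled totals. Totals were 17.3 to 22.8 M at E18.5 and 32.3 to 48.2 M at PND8, so depth changed together with age over that step. The column headers also say that numbered sets of bulk RNA-seq were combined, and do not say which libraries belong to which set. Embryonic libraries are named in another style there than later ones, so the set may have changed with age as well. What part depth or set has in the changes over that step was not tested. Cdkn1b was lower in every null library than in every WT library of its age, with 4.29 to 79.8 CPM over the null libraries and 19.1 to 265 CPM over the WT libraries of all ages. In each group granulosa lineage markers summed to means of 598 to 5633 CPM and germ cell markers to means of 6.21 to 964 CPM, with the lowest germ cell levels at 12 weeks. Some libraries stood apart on other gene lists. WT E13.5 replicate 3, the smallest library, held 18.97% haemoglobin counts against 0.701 to 1.048% in the other E13.5 libraries. Null E13.5 replicate 3 had 201 CPM of hepatocyte markers against 50.2 to 75.4 CPM in the others of that age. WT 12-week replicate 2 had 2330 CPM of 42 interferon-response genes against 772 to 924 CPM in the other WT libraries of that age, and null 12-week replicate 4 had 590 CPM of leukocyte markers against 314 to 364 CPM in the other null ones. The values that moved most with these libraries are also given without them. In whole ovaries, fewer cells of a type and less RNA per cell cannot be told apart.

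H2-Q10, the secreted heavy chain, was low in embryonic WT ovaries and higher in null ones at E18.5. It measured 1.55, 1.33, 1.98 and 0.627 CPM in the 4 WT libraries at E18.5, and 8.76, 7.48, 5.53 and 5.33 CPM in the 4 null libraries. Every null library was above every WT library, and the mean was 4.94 times as high (log2 difference 2.29, SE 0.34; 2.05 to 2.54 with any 1 library left out). This is the difference that chose the family, so no p-value is given for it. At E13.5 H2-Q10 was 0.956, 0.840, 1.23 and 0.309 CPM in WT and 0.981, 3.62 and 1.12 CPM in null libraries. The groups overlapped, and the 3.62 CPM came from null replicate 3, the library with the high hepatocyte markers, where Alb reached 15.0 CPM. At PND8 it was 2.68, 4.00, 3.48 and 3.70 CPM in WT and 6.0, 4.6 and 3.5 CPM in null libraries. At 12 weeks it was 21.1, 13.5, 6.21 and 23.0 CPM in WT and 2.73, 9.89 and 4.82 CPM in null libraries, so the WT libraries then reached the higher values, again with overlap.

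At the 3 ages that did not choose the family, the estimated difference of H2-Q10 was above 0 in the younger ovaries and below 0 in adults, and none passed the test. edgeR's quasi-likelihood test gave a log2 difference of 1.16 (SE 0.63, adjusted p = 0.989) at E13.5 (0.31 without null replicate 3), 0.43 at PND8 and -1.47 (SE 0.56, unadjusted p = 0.0307, adjusted p = 0.482) at 12 weeks. The 12-week value ran from -2.05 to -1.13 with any 1 library left out. A test of whether the genotype difference varied over E13.5, PND8 and 12 weeks gave an unadjusted p of 0.00663 and an adjusted p of 0.387 (edgeR) for H2-Q10. That test called 0 of the 10 members and 0.0146% of all genes, and H2-Q10 was the only member with an unadjusted p under 0.05. Hepatocyte markers, the genes of the cell type H2-Q10 is best known from, summed to 23.4 to 60.3 CPM in the WT and 28.4 to 47.4 CPM in the null libraries at E18.5. Of those markers Alb was at most 0.103 CPM in WT and 0.142 CPM in null libraries there, Ttr was at 0 in all 8, and 4 of 16 were at 0 in all WT and 3 in all null libraries. Apoa1, another marker of the list, was at 1.44 to 1.83 CPM in WT and 1.92 to 2.73 CPM in null libraries, with no overlap, and 2 of the 3 markers with enough counts were higher in null ovaries by their estimate. What part hepatocyte RNA has in the H2-Q10 difference was not tested.

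At E18.5 the rest of the family differed less between genotypes, again as a description. Tap1 was 19.1, 16.2, 20.0 and 16.6 CPM in WT and 22.8, 24.9, 23.1 and 26.1 CPM in null libraries. Its groups did not overlap, and the log2 difference was 0.42 (SE 0.13). H2-Q10 and Tap1 were the 2 of 10 members whose groups did not overlap, a state that 14.8% of the genes tested shared. Of the 9 members with enough counts, the 1 past the threshold was H2-Q10 itself, which the choice fixed, beside 4.99% of all genes, and nothing is read from that count. The other 7 members tested differed by -0.31 to 0.70 on the log2 scale, and H2-Q4, at 0.193 to 0.563 CPM, was too low to test. B2m ran from 103 to 208 CPM in the WT libraries and from 137 to 147 CPM in the null libraries, within the WT range. H2-K1 and H2-D1 overlapped as well, at 12.7 to 20.5 and 53.0 to 91.8 CPM in WT and 14.2 to 20.1 and 62.2 to 83.3 CPM in null libraries. The other genes of peptide supply, chosen here after their values were seen, included Tap2, the partner of Tap1, at a mean of 10.2 CPM in WT and 17.8 CPM in null libraries. The immunoproteasome subunits Psmb9 and Psmb8 were at means of 1.96 and 3.95 CPM in WT and 4.16 and 8.68 CPM in null libraries. The groups overlapped for Psmb8, at 2.13 to 6.45 CPM in WT and 4.23 to 14.3 CPM in null libraries. They did not for Psmb9, at 1.55 to 2.25 CPM in WT and 2.84 to 5.85 CPM in null libraries. Psmb9 overlaps Tap1 on the genome. Of the 24 genes listed for peptide supply and assembly, 1, the protease Ide, was called at E18.5 (log2 0.54).

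**Figure D2:**
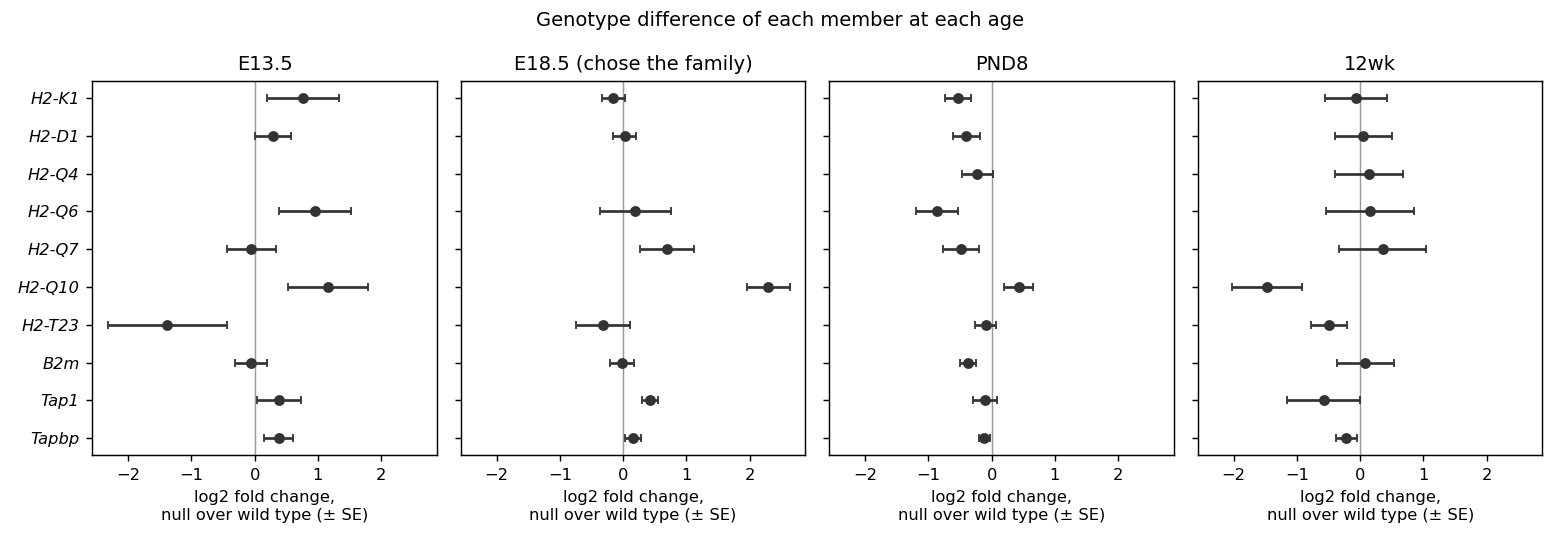
Genotype differences of the 10 genes at the 4 ages: each point is a log2 fold change of null over WT (x axis) with its standard error as a bar, 1 panel per age, and the E18.5 panel is the contrast that chose the family. H2-Q10 is at 2.29 at E18.5 and at -1.47 at 12 weeks, and most other points lie near 0.

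At the ages that did not choose the family, no member differed between genotypes past the threshold (Benjamini-Hochberg adjusted p under 0.05). At E13.5 edgeR called 0 of 9 members tested and 0.00606% of all genes, DESeq2 called 0 members, and 0 had an unadjusted p under 0.05. H2-Q6 was the 1 member whose groups did not overlap at E13.5, at 0.077 to 0.448 CPM in WT and 0.613 to 0.662 CPM in null libraries. 3.74% of the genes tested did not overlap there, and H2-Q6 passed the low-count filter only through the null group. H2-K1 gave a log2 difference of 0.76 (SE 0.57), which turned to -0.35 without null replicate 3, where it measured 13.1 CPM against 2.5 and 3.19 CPM in the other null libraries. H2-D1 likewise went from 0.29 to -0.13 without that library. H2-T23 gave -1.38 (SE 0.94), with 4.54 CPM in WT replicate 3, the library rich in haemoglobin, against 0.273 to 0.728 CPM in the other WT libraries. Without both of those libraries, a choice made after seeing the data, H2-T23 was at 0.19 and 0 members were called.

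At PND8, 9 of the 10 members were lower in null ovaries by their estimate, with a median of -0.30 against 0 over all genes, and none passed the test. B2m was 167, 160, 227 and 160 CPM in WT and 145, 143 and 130 CPM in null libraries. It was the only member whose groups did not overlap, against 14.5% of all genes, with a log2 difference of -0.37 (SE 0.12, unadjusted p = 0.016, adjusted p = 0.223 by edgeR). H2-K1 was 180, 149, 288 and 186 CPM in WT and 141, 150 and 130 CPM in null libraries (log2 -0.53, SE 0.20, adjusted p = 0.284 by edgeR). H2-Q6 gave -0.86 (SE 0.33, adjusted p = 0.283 by edgeR). These 3 were the members with an unadjusted p under 0.05, edgeR and DESeq2 called 0 of 10, and 0.349% of all genes were called. WT replicate 3 held the highest WT value of H2-K1, H2-D1, H2-Q4, H2-Q6, H2-Q7, H2-T23, B2m, Tap1 and Tapbp, and without it the H2-K1 difference was -0.31 and that of B2m -0.24. H2-Q4 (0.04), H2-T23 (0.03) and Tap1 (0.08) turned above 0 without it, which left 6 of 10 lower. At 12 weeks edgeR and DESeq2 called 0 of 10 members, edgeR called 0.0115% of all genes, and every member's groups overlapped, as did those of all but 8.72% of genes. H2-Q10 was the 1 member with an unadjusted p under 0.05, and the median over the members was -0.01.

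**Figure D3:**
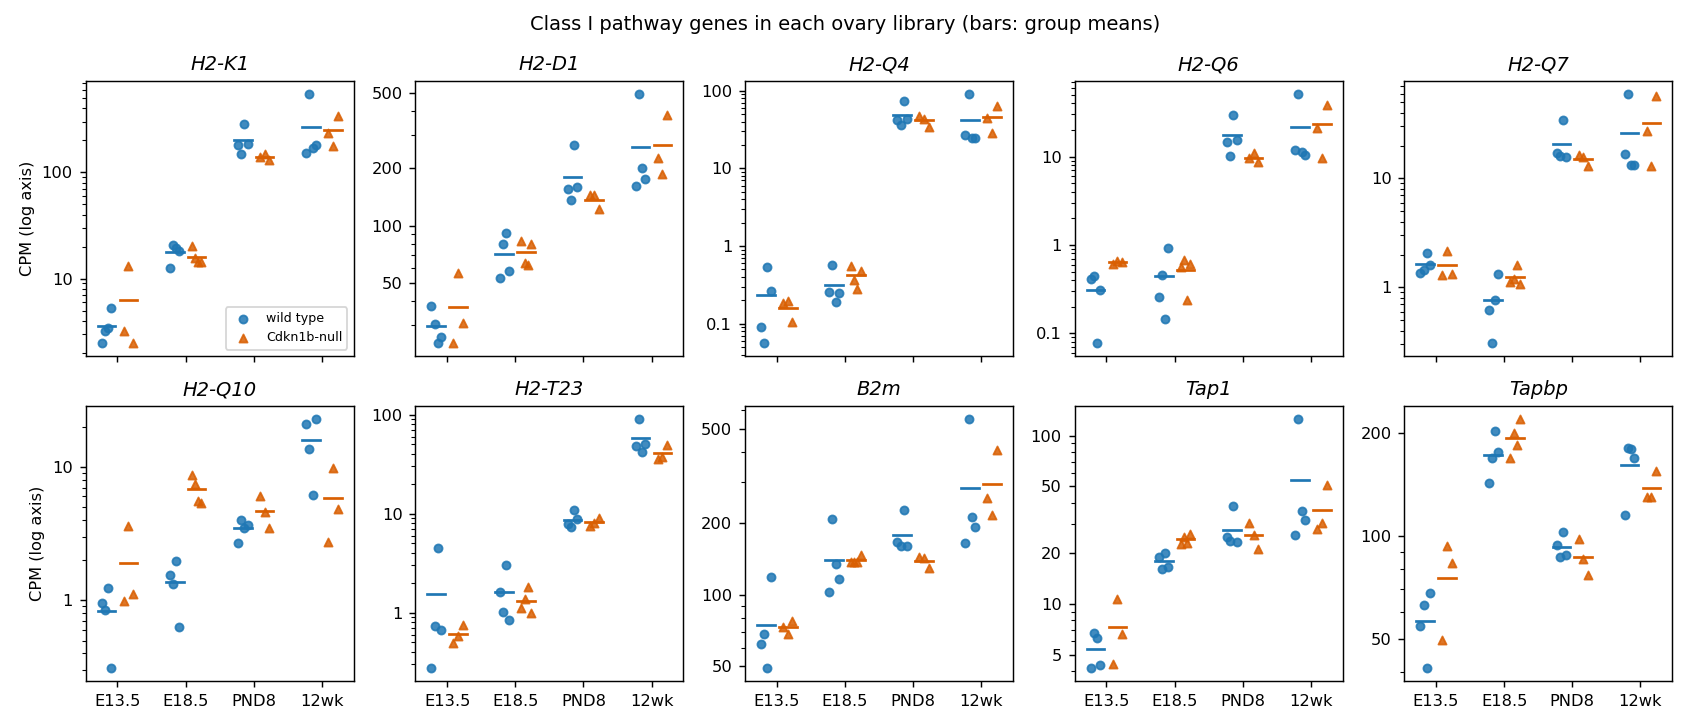
Levels of the 10 genes in all 29 libraries: each point is 1 library's CPM on a log axis, by age, with WT and null side by side and bars at the group means. H2-K1, H2-Q4, H2-Q6 and H2-Q7 step up between E18.5 and PND8, H2-T23 steps up again by 12 weeks, and Tapbp is highest at E18.5.

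From E13.5 to E18.5 in WT ovaries the classical heavy chains and the loading genes rose. H2-K1 went from 2.46, 3.19, 3.46 and 5.24 CPM to 12.7, 20.5, 19.6 and 18.3 CPM, with no overlap (log2 2.29, SE 0.27, adjusted p = 0.000208 by edgeR). H2-D1 went from 37.7, 30.2, 23.9 and 25.8 CPM to 53.0, 79.5, 91.8 and 57.7 CPM (log2 1.25, SE 0.21, adjusted p = 0.00134 by edgeR). Both classical genes were thus higher in every E18.5 library than in any E13.5 library. Tapbp rose from 41.0 to 68.0 CPM to 143 to 203 CPM (log2 1.6), and Tap1 from 4.14 to 6.72 CPM to 16.2 to 20.0 CPM (log2 1.73). B2m rose by a log2 of 0.90 (SE 0.29, adjusted p = 0.0341 by edgeR), a call lost when any of 5 of the 8 libraries was left out, with an adjusted p of up to 0.0938. These 5 were called of the 7 members tested other than H2-Q10, against 34% of all genes called, and 16.6% called higher. H2-Q7 was at 1.37 to 2.08 CPM and then, with no overlap, at 0.307 to 1.34 CPM. Its log2 change of -1.09 did not pass (adjusted p = 0.0923 by edgeR) except without WT E18.5 replicate 4 (-1.50, adjusted p = 0.0423, edgeR). H2-Q7 passed the low-count filter only through E13.5, where it was higher, so these tests are no support for a fall. H2-Q4 and H2-Q6 stayed under 1 CPM at both ages and were not tested.

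In null ovaries H2-D1, B2m, Tap1 and Tapbp rose in the same step: 4 of the 8 members tested other than H2-Q10 were called higher, against 30.2% of all genes called and 15.8% called higher. B2m rose by 0.96 (SE 0.09, adjusted p = 0.000201), Tap1 by 1.76 and Tapbp by 1.38 on the log2 scale (edgeR). H2-D1 rose by 0.99 (adjusted p = 0.0275 by edgeR), and blocking on the replicate number gave 1.13 (adjusted p = 0.0647 by edgeR). Its call was also lost without null E13.5 replicate 1 or 4, or without null E18.5 replicate 1 or 4, at log2 changes of 0.75, 0.87, 0.92 and 0.94. H2-K1 gave 1.37 (adjusted p = 0.092 by edgeR), and without null E13.5 replicate 3 it gave 2.51 (adjusted p = 0.000544 by edgeR). H2-Q10 is given without a test at the steps that touch E18.5, with log2 changes of 0.72 and 1.26 into and out of E18.5 in WT ovaries and 1.83 and -0.59 in null ovaries, where the first was 2.69 without null E13.5 replicate 3.

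Between E18.5 and PND8 the heavy chains rose and Tapbp fell. edgeR called 8 of the 9 members other than H2-Q10 in WT, 7 of them higher, over an interval in which it called 74.6% of all genes, and 37.6% of all genes higher. H2-K1 reached 180, 149, 288 and 186 CPM in WT at PND8, 11.3 times its E18.5 mean (log2 3.41, SE 0.23, adjusted p = 6.01e-07 by edgeR). H2-D1, already present in the embryo, rose 2.54 times, to 155, 137, 266 and 159 CPM (log2 1.26, SE 0.24). H2-Q4 went from 0.258, 0.563, 0.193 and 0.251 CPM to 41.7, 36.4, 73.4 and 42.9 CPM, a 154-fold ratio of means. H2-Q6 rose 39.2-fold, from at most 0.919 CPM to 10.2 to 29.5 CPM, and H2-Q7 27.5-fold, from at most 1.34 CPM to 15.8 to 34.5 CPM. H2-Q4, H2-Q6 and H2-Q7 passed the low-count filter only through PND8, so their calls are no support for a rise of the family. H2-T23 went from 1.6, 1.02, 3.04 and 0.836 CPM to 7.84, 7.25, 10.9 and 8.78 CPM (log2 2.34, SE 0.38, adjusted p = 0.00023 by edgeR).

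Tapasin went the other way from the heavy chains it loads. Tapbp fell by 0.98 on the log2 scale (SE 0.12, adjusted p = 3.35e-05 by edgeR), from 143, 170, 203 and 176 CPM to 94.0, 86.9, 103 and 88.2 CPM, with no overlap. Tap1 rose by 0.53 (SE 0.17, adjusted p = 0.0155 by edgeR), a call lost when all groups were fitted together (adjusted p = 0.126 by edgeR). B2m had a log2 change of 0.26 (adjusted p = 0.301 by edgeR) and was called only without WT E18.5 replicate 2 (0.54, adjusted p = 0.00964 by edgeR), the library at 208 CPM. Of the 6 members other than H2-Q10 that also passed the filter at E18.5, 5 were called. Null ovaries gave log2 changes of 3.06 for H2-K1, 0.85 for H2-D1, 4.14 for H2-Q6, 3.52 for H2-Q7, 2.58 for H2-T23 and -1.22 for Tapbp, all called by edgeR, in a step with 77.4% of all genes called. H2-Q4 was called at 6.54 but passed the filter only through PND8, and B2m (-0.07) and Tap1 (0.02) were not called.

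Genes that regulate class I, and genes of cells rich in it, moved in different directions over that step. Nlrc5, the class I transactivator, chosen here after its values were seen, was at 0 to 0.669 CPM in WT ovaries at E18.5 and 4.00 to 12.5 CPM at PND8. Its log2 change was 4.80 (SE 0.74, adjusted p = 0.000177 by edgeR) in WT and 5.51 (SE 0.34, adjusted p = 2.16e-07 by edgeR) in null ovaries, and it too passed the filter through PND8. The interferon-response list of other genes instead fell as a group: 24 of 39 tested were called lower and 5 higher in WT, with a median log2 change of -1.23 (0.01 over all genes), and 25 lower and 5 higher in null ovaries. Leukocyte markers fell as well, 10 of 14 lower and 0 higher in WT, and their summed level went from 248 to 67.6 CPM. What part Nlrc5 or these lists have in the rise of H2-K1, H2-D1 and H2-T23 was not tested. Among genes of peptide supply, 14 of 24 were called higher and 6 lower, in a step where 74.6% of all genes were called and 37.6% called higher, including the aminopeptidase Lnpep (log2 3.24) and the loading chaperone Calr (1.96). Of 18 genes that act in class I transcription, 8 were called higher and 3 lower in WT, against those same shares of all genes, among them Nfya, a subunit of the CCAAT-binding factor, by 2.31. In the earlier step from E13.5 to E18.5, 26 of 38 interferon-response genes had been called higher and 0 lower in WT, with a median of 1.69 (0.01 over all genes), including the GTPase Tgtp1 (3.45). Of 23 other class I and class I-like genes, 7 were tested in that step and 4 were called higher in WT, and 5 of 11 were called higher and 2 lower from E18.5 to PND8. In null ovaries 16 of 37 interferon-response genes were called higher and 0 lower from E13.5 to E18.5, and Tap2 rose by a log2 of 3.54.

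From PND8 to 12 weeks the nonclassical chain H2-T23, the secreted chain H2-Q10 and Tapbp rose in WT ovaries. H2-T23 went from 7.84, 7.25, 10.9 and 8.78 CPM to 47.7, 91.1, 41.5 and 50.7 CPM, 6.65 times its PND8 mean (log2 2.81, SE 0.26, adjusted p = 0.000208 by edgeR). H2-Q10 rose 4.6 times, from 2.68 to 4.00 CPM to 6.21 to 23.0 CPM (log2 2.28, SE 0.38, adjusted p = 0.00287 by edgeR). Tapbp rose 1.73 times, with WT values up to 181 CPM (log2 0.87, SE 0.14). All of these were higher in every 12-week WT library than in any PND8 one. edgeR called these 3 of 10 members higher, against 30.5% of all genes called and 16.1% called higher. The others ranged from -0.14 for H2-Q4 to 1.06 for Tap1 (adjusted p = 0.135 by edgeR). In null ovaries 5 of 10 were called higher, against 29.1% of all genes called and 14.8% called higher: H2-T23 by 2.41 (SE 0.18), B2m by 1.18 (SE 0.26), H2-D1 by 1.06 (SE 0.29), H2-K1 by 0.93 (SE 0.25) and Tapbp by 0.76 (SE 0.13) on the log2 scale. H2-Q10 gave 0.38 in null ovaries and was not called. The calls of H2-K1 (adjusted p = 0.0331) and H2-D1 (adjusted p = 0.0353, both edgeR) lie near the threshold. The call of B2m was lost with no filter on low counts (adjusted p = 0.0513 by edgeR). It was also lost when any 1 null PND8 library was left out (adjusted p = 0.0514 to 0.0614 by edgeR). The count of 5 fell to 2 with no filter on low counts and to 3 when blocked on the replicate number or with all groups in 1 fit.

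In the same interval markers of other cells rose. Leukocyte markers were called higher for 19 of 21 genes in WT and 15 of 20 in null ovaries, with WT sums of 67.6 and then 388 CPM. MHC class II genes were called higher for 9 of 9 in WT, with sums of 17.2 and then 548 CPM. Interferon-response genes were called higher for 33 of 42 in WT and 36 of 42 in null ovaries, with 0 lower in either, including Oas2 (3.43) and Ifit3 (4.32) in WT and Tgtp2 (3.97) in null ovaries. The immunoproteasome subunit Psmb8 rose by 2.42 in null ovaries. What part these lists have in the rise of H2-T23, H2-K1 or H2-D1 was not tested.

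One WT library at 12 weeks moved several of these values. In WT 12-week replicate 2, H2-K1 was 552 CPM against 153, 171 and 182 CPM, H2-D1 497 against 162 to 202 CPM, B2m 553 against 166 to 213 CPM and Tap1 126 against 25.8 to 35.5 CPM. Its ratios to the mean of the other 3 libraries were 4.59 for H2-Q6, 4.16 for H2-Q7, 4.09 for Tap1, 3.63 for H2-Q4, 3.27 for H2-K1, 2.90 for B2m, 2.77 for H2-D1 and 1.95 for H2-T23. Tapbp (1.17) and H2-Q10 (0.807) were not raised by as much. Nlrc5, chosen after its values were seen, was 46.2 CPM there against 7.52 to 8.52 CPM. Leukocyte markers summed to 355 CPM in that library against 359 to 427 CPM, whereas class II genes, which antigen-presenting leukocytes express, summed to 878 CPM against 324 to 498 CPM. Without it H2-Q4 was called lower from PND8 to 12 weeks in WT (log2 -0.85, adjusted p = 0.0258 by edgeR), H2-K1 turned from 0.47 to -0.17, H2-Q6 from 0.36 to -0.55 and Tap1 dropped from 1.06 to 0.25. The rises of H2-T23 (2.51), H2-Q10 (2.36) and Tapbp (0.81) were called without it as well. Null 12-week replicate 4 stood above the other null libraries by a median ratio of 1.74 over the members (0.763 for H2-Q10 to 2.87), and in that library endothelial markers summed to 2002 CPM against 660 to 798 CPM, beside the raised leukocyte markers. Interferon-response genes summed to 1401 CPM there against 888 and 918 CPM and class II genes to 828 against 276 and 350 CPM, and the part of these lists in the ratios was not tested. Without both libraries, a choice made after seeing the data, the genotype difference at 12 weeks was 0.25 for H2-K1, 0.18 for H2-D1 and -1.45 for H2-Q10, and 0 members were called.

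**Figure D4:**
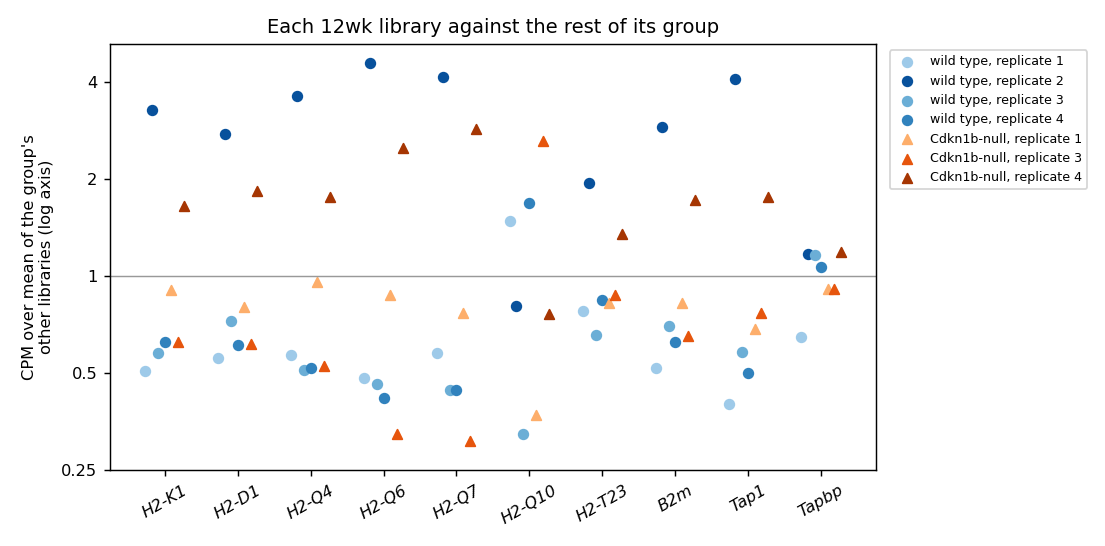
Each 12-week library against the mean of the other libraries of its group: points give the ratio of CPM (y axis, log scale) for the 10 genes, circles for WT and triangles for null libraries. WT replicate 2 lies at 1.95 or above for 8 genes, with Tapbp at 1.17 and H2-Q10 at 0.807.

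The make-up of the heavy-chain pool changed with age. The share of each gene in the summed CPM per kilobase of the 7 heavy chains was computed in each library, per length because the transcripts differ in size. H2-D1 made up 72.3% ± 10.3 (SD, n = 4) at E13.5 and 69.9% ± 2.93 (SD, n = 4) at E18.5 in WT, then 31.1% ± 0.549 (SD, n = 4) at PND8 and 31.6% ± 2.84 (SD, n = 4) at 12 weeks. H2-K1 went the other way, from 12.2% ± 4.88 and 24.0% ± 3.10 in the embryo to 46.9% ± 1.22 and 41.5% ± 2.66 after birth. Per kilobase, H2-D1 was thus the larger of the classical chains in every WT library before birth, and H2-K1 in every one after it. Without the division by length the order at 12 weeks was not kept, with mean shares of 38.2% for H2-D1 and 37.5% for H2-K1. The ratio of H2-K1 to H2-D1 per kilobase was 0.174, 0.345, 1.51 and 1.32 on average over the 4 ages in WT, and 0.200, 0.300, 1.38 and 1.28 in null ovaries. The chains H2-Q4, H2-Q6 and H2-Q7 together made up 7.58, 2.20, 19.0 and 12.9% in WT and 7.11, 2.85, 19.7 and 15.8% in null ovaries. Summed into 1 feature, which the division of reads among the 7 chains does not change, the heavy chains gave log2 changes of 1.29 (SE 0.174), 2.28 (SE 0.236) and 0.59 (SE 0.389) over the successive steps in WT and 1.06, 1.79 and 0.99 in null ovaries. The 0.59 rests on WT 12-week replicate 2, at a summed 1358 CPM against 440, 470 and 480 CPM in the others, beside a mean of 479 CPM at PND8. Between genotypes the sum differed by 0.32 at E13.5, where null replicate 3 had 76.7 CPM, the other null libraries 30.8 and 37.0 CPM and the WT libraries a mean of 37.5 CPM. At the later ages it differed by 0.08 at E18.5, by -0.44 (SE 0.21) at PND8 and by -0.03 in adults. At PND8 WT replicate 3 had 706 CPM, the other WT libraries 360 to 431 CPM and the null libraries 320 to 378 CPM. Since H2-K1 and H2-D1 make up most of the sum, it says little of the other chains. H2-T23 was at 2.22% ± 0.272 at PND8 and 10.9% ± 2.24 at 12 weeks in WT, and at 2.78 and 7.68% in null ovaries.

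The share of H2-Q10 was small throughout. It was 2.47, 1.67, 0.783 and 2.98% on average over the 4 ages in WT, and 4.10, 7.68, 1.33 and 1.05% in null ovaries. At E18.5 it ran from 0.868 to 2.48% in WT and from 5.86 to 9.21% in null libraries, which is the chosen difference seen as a share. The shares of the other chains at E18.5 were close between genotypes, with H2-D1 at 69.9% ± 2.93 and 67.5% ± 3.69 and H2-K1 at 24.0% ± 3.10 and 20.1% ± 1.93 (SD, n = 4 each). The summed heavy chains per kilobase relative to B2m were 0.249, 0.303, 1.3 and 1.21 in WT and 0.297, 0.313, 1.25 and 1.11 in null ovaries, so the ratio was above 1 in the 4 groups after birth and below 1 in the 4 embryonic groups.

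**Figure D5:**
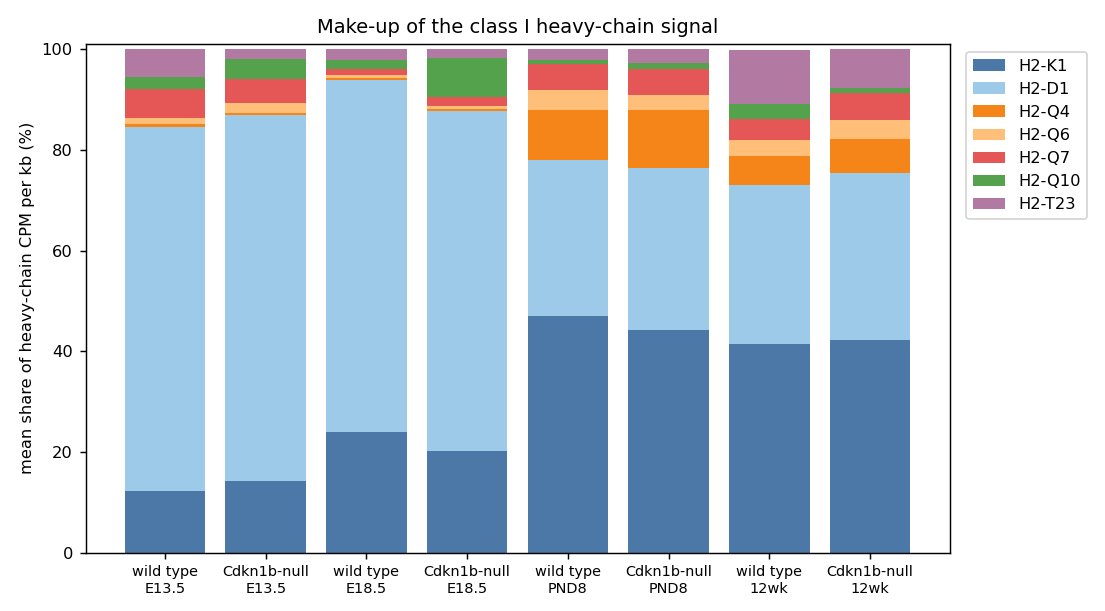
Composition of the heavy-chain pool: stacked bars give each chain's mean share (y axis, percent of summed CPM per kilobase) in the 8 groups. H2-D1 holds 72.3 and 69.9% in the WT embryo and 31.1% at PND8, where H2-K1 holds 46.9%.

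Per kilobase, B2m was the most abundant of the 10 in all 8 groups, at 86.8 CPM per kb in WT at E13.5 and 327 at 12 weeks. In WT at E18.5 Tapbp followed at 63.0 ± 8.97, then H2-D1 at 33.6 ± 8.71, H2-K1 at 11.3 ± 2.24 and Tap1 at 6.46 ± 0.664 CPM per kb (SD, n = 4). Below these, H2-T23 (1.10), H2-Q10 (0.791), H2-Q7 (0.520), H2-Q6 (0.291) and H2-Q4 (0.176) were neighbours within their spread. At PND8 the WT order was B2m 207, H2-K1 128, H2-D1 85.2, Tapbp 33.9, H2-Q4 27.1, H2-Q7 14.3, H2-Q6 11.4, Tap1 9.88, H2-T23 5.90 and H2-Q10 2.00 CPM per kb. H2-Q7, H2-Q6 and Tap1 lay within their spread there, and H2-Q10 was the lowest, as it was in WT at 12 weeks at 9.21 CPM per kb.

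Across the 29 libraries, which share ages, genotypes and depth, the classical chains and H2-Q4, H2-Q6 and H2-Q7 had like profiles. H2-Q10 was less like them, and Tapbp less still. Pearson's r of log2 CPM was 0.97 for H2-K1 with H2-D1, 0.95 for H2-K1 with H2-Q4 and 0.96 for H2-Q4 with H2-Q6, the last among genes with shared sequence. H2-Q10 had its highest r, 0.76, with Tap1 and its lowest, 0.50, with Tapbp. With H2-Q7 and H2-D1, r was 0.55 and 0.70 for H2-Q10 and 0 and 0.49 for Tapbp, their lowest and highest with those chains. Over 13970 genes with a mean of at least 2 CPM, those most like H2-Q10 were Wbp2 (0.817), Acsl5 (0.806), Fkbp5 (0.793), Gsg1l (0.792) and Dennd3 (0.792). Those most like H2-K1 were Ltbp3 (0.979), Parp4 (0.975), Cyhr1 (0.973), Hexim1 (0.973) and Susd6 (0.972). These are descriptions over 29 libraries that mostly separate by age. They include the E18.5 libraries whose H2-Q10 values chose the family, so the r of H2-Q10 is not free of that choice.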

How the data were processed

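Ovaries were dissociated with papain and RNA was extracted with a micro column kit, per the labels' protocols. The submitters' processing notes name Trim Galore, FastQC 0.11.5, STAR 2.5.2 and RSEM 1.3.0; the genome build the reads were aligned to is not given in the sources used here, nor are the read length and strandedness. The authors deposited RSEM expected counts per gene, per the file headers: estimates in which a read that matches several genes is split, so that values can be fractional. Of the values above 0, 31.4% were not whole. All columns of per-sample values were used.

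Expected counts were rounded to whole numbers. Symbols were matched by ID for 51633 of 51912 genes, and positions, transcript lengths and shared stretches come from GENCODE M21. Genotypes were compared within each age, and consecutive ages within each genotype, on the libraries of those groups alone. Each comparison was fitted over all genes with edgeR 4.0.16 (R 4.3.3): TMM scaling, filterByExpr with a minimum count of 10 and a minimum total of 15, and a robust quasi-likelihood fit with p-values adjusted by Benjamini-Hochberg. The fits were tested on simulated counts for the E18.5 and PND8 genotype comparisons and the WT step from E18.5 to PND8. The simulated dispersion was the same for all genes, whereas SDs of the members ran from 3.5 to 129% of their group means. It therefore gives no measure of the power to find differences in the members. A call means an adjusted p under 0.05. Alternatives were DESeq2 1.42.0, its size factors, no filter, all groups in 1 fit, a block for the replicate number, and each library left out in turn. The members, gene lists and tests were chosen with earlier results of these data known. Named genes are the members, Cdkn1b, up to 4 listed genes per comparison with the smallest p among those called, and the 5 genes most correlated with H2-Q10 and with H2-K1 (log2 CPM, prior count 2, mean of at least 2 CPM); others are said to be chosen after their values were seen.

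A floor of 3 counts was 0.0622 to 0.213 CPM, which covers counting error only. All 39 pairs of replicates differed beyond sampling noise (chi-square per degree of freedom 13.0 to 285). Nothing in the sources says that replicates are separate animals, so p-values measure only the spread between these samples. Same-numbered libraries deviated together in every pair (r over 0.1) only for the E18.5 genotypes (0.167 to 0.307) and for the null libraries of E13.5 and E18.5 (0.179 to 0.234).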

Additional observations from a re-analysis of the deposited data

Results flagged for a closer look

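In 50 sets of 4 libraries (each gene in each group of 4), a single library lay far from the other 3 in 14. The rule flags about 1 in 20 sets when sets are independent and values normal. These genes vary together in the same libraries, so the 14 cannot be set against that rate. WT 12-week replicate 2 was the high library in 7 of them: 552 CPM for H2-K1, 497 for H2-D1, 92.2 for H2-Q4, 51.7 for H2-Q6, 60.1 for H2-Q7, 553 for B2m and 126 for Tap1. WT PND8 replicate 3 was high at 266 CPM for H2-D1, 34.5 for H2-Q7, 227 for B2m and 38.3 for Tap1. WT E13.5 replicate 3, the library with the most haemoglobin counts, was high at 4.54 CPM for H2-T23. Null E18.5 replicate 4 was high for B2m at 147 CPM, a small distance from the 137 and 138 CPM of the others. WT 12-week replicate 1 was low for Tapbp at 115 CPM.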

How the results depend on the processing

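Of 1186 values of member log2 fold changes recomputed under an alternative, 1136 counted as unchanged, 30 lost a call, 11 gained one and 9 moved further. A called value counted as unchanged if it stayed called in the same direction. A value called in neither fit, or given without a test, did so if it moved by less than the pooled SD of log2 CPM within groups. That SD is not the SE given above, and such a value could change sign, as H2-D1 did at E13.5 (0.29 to -0.13). Of the called values, 0 changed sign. At E18.5, where the choice of H2-Q10 fixes its call and nothing is read from the count, DESeq2 gave 2 members in place of 1. In null ovaries from PND8 to 12 weeks the 5 members called became 2 with no filter on low counts, 3 with the replicate block and 3 with all groups in 1 fit. With 1 library left out, that count ran from 2 to 7. It ran from 4 to 6, 8 to 9 and 3 to 4 in the successive WT steps, from 3 to 5 and 7 to 7 in the earlier null steps, from 1 to 1 for genotype at E18.5 (H2-Q10, by choice), and from 0 to 0 for genotype at the other ages and for the interaction. The cause of these changes was not tested. The replicate block ended the calls of H2-D1 in null ovaries from E13.5 to E18.5 (adjusted p = 0.0647, edgeR) and of H2-K1 and H2-D1 from PND8 to 12 weeks (0.0696 and 0.0724), and no other member call. Shares of raw CPM in place of CPM per kilobase gave 75.7% for H2-D1 at E18.5, 37.4% at PND8 and 38.2% at 12 weeks in WT, and 42.1% and 37.5% for H2-K1 at PND8 and 12 weeks. The embryonic values of H2-Q4 were too low for several tests, and what part depth has in this was not tested.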
